A study of Mus musculus with 6 samples.

Results

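Cells make nucleotides in linked branches, and 38 mouse genes of these branches were read by symbol from a table of 19233 genes, in which all 38 were present. The rule that selects them is a list of gene names and uses no measured value, but the list was drawn up with earlier results of these data known. The genes cover de novo purine synthesis (8), the steps from inosine monophosphate (IMP) to AMP and GMP (5), de novo pyrimidine synthesis (5), deoxynucleotide synthesis (6), deoxynucleoside salvage (3), salvage of bases and ribonucleosides (6), nucleotide kinases (4) and the dNTP hydrolase Samhd1. The values come from RNA sequencing of polysome fractions, which hold mRNAs carrying several ribosomes, from RAW264.7, a mouse macrophage-like cell line. All 6 libraries are titled M2, the alternatively activated state. In 3 of them the cells had received 500 nM BMH-21, a small-molecule inhibitor of RNA polymerase I, and in the other 3 the solvent DMSO. The labels place the drug 24 h after polarization and for 24 h, and the question was how the drug changed the mRNAs on polysomes. Their treatment text speaks of bone-marrow-derived macrophages, IL-4 at 20 ng/ml, and interferon gamma and LPS at 50 ng/ml each, so the agent that polarized the cell line is not stated. The labels do not say whether replicates are separate cultures, and the p-values therefore reflect the variation among these libraries alone, which may be technical. Unfractionated RNA was not analysed here, so an mRNA's abundance and its share on polysomes cannot be told apart, nor can fewer cells of a kind and less RNA per cell.

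De novo purine synthesis builds the purine ring stepwise on phosphoribosyl pyrophosphate (PRPP) and ends in IMP, the common precursor of AMP and GMP. De novo pyrimidine synthesis builds the ring first, joins it to PRPP and ends in UMP, from which CTP is made. Ribonucleotide reductase turns ribonucleotides into the deoxynucleotides needed for DNA, and salvage enzymes recycle free bases and nucleosides. Demand for deoxynucleotides is known to be high in S phase, and ribosomal RNA synthesis is a large consumer of ribonucleotides in growing cells.

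Values are FPKM (fragments per transcript length and per mapped fragments), so levels of different genes are compared per length. The depth read from the lowest values was 21610000 to 24070000 reads with DMSO and 18770000 to 22560000 reads with BMH-21. Of 10 macrophage markers, 9 were at 1 FPKM or more in every library, and Mertk was not. Their summed level, mostly Lyz2, was 10812 to 11211 FPKM with DMSO and 18584 to 19798 FPKM with BMH-21. The markers did not all move in the direction of this sum. Mean levels of Lyz2 (9471 to 17503 FPKM), Cd68, Cd14, Itgam and Spi1 were higher with BMH-21. Those of Adgre1 (40.7 to 22.7 FPKM), Csf1r, Fcgr1, Ptprc and Mertk were lower. The libraries were not alike in another respect. All 5 epithelial markers in the list were at or near 0 in DMSO replicates 1 and 2 and were detected in DMSO replicate 3 and all BMH-21 libraries. Their summed level was 0 in DMSO replicate 1, 0.0880 FPKM in DMSO replicate 2, 9.73 FPKM in DMSO replicate 3, and 10.9 to 14.2 FPKM with BMH-21. Krt18 alone was at 5.47 FPKM in DMSO replicate 3 and 6.41 to 8.89 FPKM with BMH-21. DMSO replicate 2 is also the only library labelled as polyA RNA, the others being labelled total RNA. With DMSO replicate 3 as the only DMSO library, the median log2 change was -0.64 for the 38 nucleotide genes and -0.23 for all tested genes. Without DMSO replicate 3, 29 of the 38 were called lower and 5 higher, where 56.5% and 18.6% of all tested genes were. In the first of these fits the single DMSO library is assumed to vary like the BMH-21 libraries, so its calls carry no DMSO spread wherever they are named. The part of the epithelial RNA in the results was not tested.

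With BMH-21, most of the nucleotide genes were lower. Changes are differences in log2(FPKM + 1) between BMH-21 and DMSO, a scale that shrinks those of low genes, and a gene is called at a Benjamini-Hochberg adjusted p under 0.05 from limma, fitted and adjusted over 9748 tested genes. All 38 genes passed the filter on low values. Of them 28 (73.7%) were called lower, 5 (13.2%) higher and 5 were not called, where 58.4% of all tested genes were called lower and 19.9% higher (78.3% in either direction). A log2 change of -1 or less was called for 7 of the 38 (18.4%) and for 5.24% of all tested genes. With a pseudocount of 0.1 in place of 1 it was called for 11 of the 38 and for 10.0% of all genes. It was called for 4 of the 38 with median-ratio scaling, upper-quartile scaling and the coding length and GC adjustment, and for 5 with quantile normalization, where 2.32% to 2.61% of all genes were. The median change of the 38 was -0.63, where that of all tested genes was -0.23. The 2 groups did not overlap for most genes, with BMH-21 below DMSO in 29 and above it in 5, where the shares over all tested genes were 59.5% and 20.3%.

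The all-gene median, and with it the number of falls, depends on how libraries are scaled. Median-ratio scaling moved it by 0.24, upper-quartile scaling by 0.26 and quantile normalization by 0.24. Under these scalings 25, 23 and 24 of the 38 genes were called lower, where 35.3%, 33.8% and 35.9% of all genes were. Relative to the all-gene median, the median of the 38 was -0.40 as deposited, -0.41 under both median-ratio and upper-quartile scaling, and -0.48 with quantile normalization. Under all alternatives run, 22 genes were called lower whenever they were tested, 4 higher, and 12 had calls that differed between alternatives. The matching shares of all tested genes are not given here, so whether these counts are unusual cannot be told. Pfas, Adssl1, Dctd, Uck1, Pnp and Guk1 changed sign under at least 1 of the 3 scalings.

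**Figure D1:**
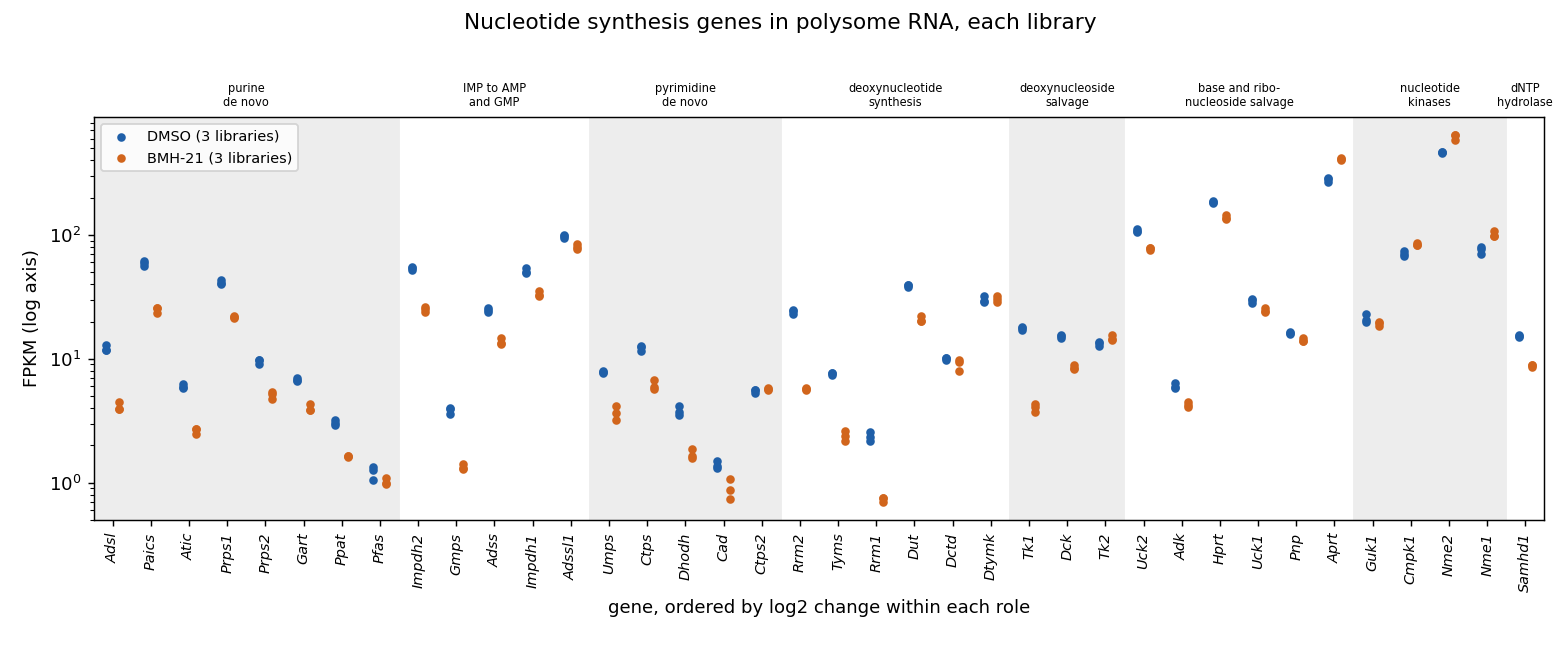
FPKM (log axis) of the 38 genes in each of the 3 DMSO (blue) and 3 BMH-21 (orange) libraries, grouped by role and ordered by change within each role. Most BMH-21 points lie below the DMSO points of the same gene, while Aprt, Cmpk1, Nme1, Nme2 and Tk2 lie above.

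The largest falls were in deoxynucleotide supply, in the genes for the small subunit of ribonucleotide reductase and cytosolic thymidine kinase. Short stretches upstream of the genes of both reductase subunits, of Tk1 and of Aprt, the gene with the largest rise, are shown because these genes moved the most or encode partners. They are the 100 bases just before the GENCODE start of each gene, 5' to 3' on the gene's strand, from RefSeq promoters on GRCm38.p6, the assembly of mm10. Capitals mark CCAAT or its reverse complement ATTGG, the letters bound by the factor NF-Y.
Rrm1, chr7:102441595-102441694, plus strand: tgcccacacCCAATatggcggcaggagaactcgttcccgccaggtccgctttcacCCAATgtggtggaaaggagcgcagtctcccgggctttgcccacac
Rrm2, chr12:24708141-24708240, plus strand: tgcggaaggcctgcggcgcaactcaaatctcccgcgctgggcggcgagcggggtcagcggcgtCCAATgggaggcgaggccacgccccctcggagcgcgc
Tk1, chr11:117826093-117826192, minus strand: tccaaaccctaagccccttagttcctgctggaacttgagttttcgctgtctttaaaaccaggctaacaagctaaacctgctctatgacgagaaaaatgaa
Aprt, chr8:122576910-122577009, minus strand: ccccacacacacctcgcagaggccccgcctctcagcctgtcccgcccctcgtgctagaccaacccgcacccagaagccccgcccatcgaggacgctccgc

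Both reductase stretches hold CCAAT, and those of Tk1 and Aprt hold neither orientation of it. In the whole 300-base promoter, CCAAT on either strand was found in 14 of the 36 nucleotide genes with a RefSeq promoter entry (38.9%) and in 41.1% of all 27025 genes with one. Of those 14, 10 were called lower, 0 higher and 4 were not called, where 58.4% of all tested genes were called lower and 19.9% higher. CCAAT was searched after the values were seen, and its part in the changes was not tested. The letters TTTCGCGC and TTTGGCGC, 2 forms of the E2F motif, were in 0 of the 36 and in 0.374% and 0.585% of all genes, on either strand. None of these motifs contains another, and a match is only a description of these letters.

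Rrm2 (chromosome 12, 24708241 to 24714146) encodes the small subunit of ribonucleotide reductase, which carries its radical cofactor. It was at 24.7, 24.4 and 23.1 FPKM in the DMSO libraries and at 5.71, 5.84 and 5.60 FPKM in the BMH-21 libraries. The groups lay far apart, with a log2 change of -1.90 ± 0.04 (SE, limma adjusted p = 8.85e-10), the lowest of the 38 genes on this scale. By the ratio of mean levels, with a pseudocount of 0.1 (-2.09 against -2.05) and with the coding length and GC adjustment (-1.76 against -1.59), Tk1 fell further than Rrm2, as it did slightly without BMH-21 replicate 1 or 3. Rrm1 (chromosome 7, 102441695 to 102469771), the large catalytic subunit, was far less abundant per length, at 2.55, 2.35 and 2.16 FPKM with DMSO and 0.701, 0.752 and 0.746 FPKM with BMH-21. Its mean level was 3.20-fold lower, and its log2 change was -0.95, or -1.55 with a pseudocount of 0.1. Rrm2 was 4.21-fold lower, and the ratio of both is given with the other pairs. Rrm2b, which encodes the p53-inducible small subunit and was picked out after its values were seen, was at 2.93 FPKM with DMSO and 2.89 FPKM with BMH-21 and was not called (limma adjusted p = 0.82). It was called higher under all 3 scalings.

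Tyms (chromosome 5, 30058202 to 30073617), thymidylate synthase, methylates dUMP to dTMP. It was at 7.65, 7.37 and 7.64 FPKM with DMSO and 2.16, 2.62 and 2.39 FPKM with BMH-21, a log2 change of -1.34 ± 0.06 (SE, limma adjusted p = 2.53e-08) with no overlap. Dut, the dUTPase that keeps uracil out of DNA and supplies dUMP, went from 38.8 ± 0.68 to 20.8 ± 1.1 FPKM (SD, n = 3), a called fall of 0.87 on the log2 scale. The other dUMP source, the dCMP deaminase gene Dctd, was at 10.2, 9.77 and 10.1 FPKM with DMSO and 9.75, 7.95 and 9.33 FPKM with BMH-21. Every BMH-21 value of Dctd was below every DMSO value, yet it was not called (log2 change -0.14, 95% confidence interval -0.29 to 0.01, limma adjusted p = 0.072). It was called lower without BMH-21 replicate 1 (-0.20, limma adjusted p = 0.024). Dtymk, the thymidylate kinase that acts right after thymidylate synthase, was at 32.3, 28.8 and 29.2 FPKM with DMSO and 28.9, 30.3 and 32.0 FPKM with BMH-21. These ranges overlapped (log2 change 0.01, 95% confidence interval -0.11 to 0.14, limma adjusted p = 0.82). Dtymk was called higher under the 3 scalings, at 0.30, 0.32 and 0.17. Of the 6 genes of this role 4 were called lower and 2 were not called, where 58.4% of all tested genes were called lower. The median change of the 6 was -0.68 relative to all genes.

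Among the 3 deoxynucleoside kinases the cytosolic and mitochondrial thymidine kinases were called in opposite directions. Tk1 (chromosome 11, 117815526 to 117826092), the cytosolic enzyme of S phase, was at 18.1, 17.6 and 16.9 FPKM with DMSO and 4.32, 3.70 and 4.10 FPKM with BMH-21. That is a mean level 4.35-fold lower, with a log2 change of -1.88 ± 0.06 (SE, limma adjusted p = 2.6e-09). Tk2, which phosphorylates deoxypyrimidines in mitochondria, was at 12.6, 13.5 and 13.8 FPKM with DMSO and 15.6, 14.3 and 14.6 FPKM with BMH-21. The groups did not overlap, but the difference was small, 0.15 ± 0.05 on the log2 scale (SE, limma adjusted p = 0.020). The call was lost without DMSO replicate 1 (limma adjusted p = 0.074), without BMH-21 replicate 1 (0.078) and with no filter on low values (0.052). With DMSO replicate 3 as the only DMSO library the log2 change was 0.10. Tk2 was called higher under the 3 scalings, at 0.42, 0.45 and 0.38, and with the coding length and GC adjustment, at 0.33. Dck, which phosphorylates deoxycytidine and purine deoxynucleosides, was at 15.7, 15.2 and 14.7 FPKM with DMSO and 8.92, 8.50 and 8.20 FPKM with BMH-21, a log2 change of -0.77 ± 0.05 (SE, limma adjusted p = 2.17e-07).

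Samhd1 works in the opposite direction, since it hydrolyses dNTPs, and is known for limiting them in macrophages. It was at 15.1, 14.9 and 15.6 FPKM with DMSO and 8.84, 8.94 and 8.51 FPKM with BMH-21. Without overlap, it fell by 0.73 ± 0.04 on the log2 scale (SE, limma adjusted p = 1.64e-07).

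In de novo purine synthesis 7 of 8 genes were called lower and 1 was not called, where 58.4% of all tested genes were called lower. The summed level of the 8 was 139 ± 4.4 FPKM with DMSO and 65.0 ± 2.0 FPKM with BMH-21 (SD, n = 3). Their median change was -0.61 relative to all genes, and between -0.58 and -0.56 relative to all genes under the 3 scalings. Prps1, the more abundant of the PRPP synthetase genes, went from 41.4 to 21.7 FPKM, and Prps2 from 9.53 to 5.09 FPKM. Ppat, the amidotransferase that commits PRPP to the purine pathway, went from 3.05 ± 0.15 to 1.64 ± 0.02 FPKM (SD, n = 3). Gart, a trifunctional enzyme of the following steps, went from 6.78 to 4.01 FPKM. Pfas, which makes the amidine intermediate, was at 1.33, 1.25 and 1.04 FPKM with DMSO and 0.987, 1.09 and 0.975 FPKM with BMH-21. Its groups overlapped and it was not called (log2 change -0.13, 95% confidence interval -0.28 to 0.02, limma adjusted p = 0.11), and its sign depended on the setting. It was called lower without DMSO replicate 3 (limma adjusted p = 0.035) and higher with the coding length and GC adjustment (0.19, limma adjusted p = 0.023), and was at 0.027, 0.039 and 0.13 under the 3 scalings, where it was not called.

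Paics (chromosome 5, 76951307 to 76967509), bifunctional for a carboxylation and the following ligation, was the most abundant of the 8 per length. It was at 56.4, 61.5 and 59.9 FPKM with DMSO and 25.6, 25.5 and 23.4 FPKM with BMH-21, a log2 change of -1.22 ± 0.05 (SE, limma adjusted p = 1.35e-08). Paics and Ppat (chromosome 5, 76913249 to 76951578) lie head to head on opposite strands, and their annotated exons share 272 bases. As the kit is not stated to mark strand, reads in those bases, 6.15% of Ppat's exon bases and 8.67% of those of Paics, cannot be told apart. Adsl, adenylosuccinate lyase, acts both in the ring's construction and in AMP synthesis. It was at 11.7, 11.8 and 12.9 FPKM with DMSO and 4.50, 3.96 and 3.97 FPKM with BMH-21, a log2 change of -1.35 ± 0.06 (SE, limma adjusted p = 2.3e-08). Atic, which closes the ring to IMP, went from 5.98 to 2.63 FPKM.

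All 5 genes that lead from IMP to AMP and GMP were called lower, with a median change of -0.58 relative to all genes. The share called lower over all tested genes was 58.4%. Impdh2 (chromosome 9, 108560286 to 108565584), the proliferation-linked isoform of the rate-limiting enzyme of guanine nucleotide synthesis, was at 51.9, 54.4 and 55.4 FPKM with DMSO and 25.4, 26.3 and 23.6 FPKM with BMH-21. Its log2 change was -1.07 ± 0.05 (SE, limma adjusted p = 2.99e-08). Impdh1, the other isoform, went from 51.3 to 33.4 FPKM. Gmps, which aminates XMP to GMP, was at 3.61, 3.92 and 3.99 FPKM with DMSO and 1.32, 1.29 and 1.41 FPKM with BMH-21, a log2 change of -1.05 ± 0.06 (SE, limma adjusted p = 8.93e-08). On the AMP side, Adss went from 24.8 to 13.7 FPKM. Its paralog Adssl1, best known from muscle, went from 97.3 to 80.6 FPKM, a log2 change of -0.27 that turned to 0.023 and 0.046, not called, with median-ratio and upper-quartile scaling. Adssl1 was called higher with the coding length and GC adjustment (0.096, limma adjusted p = 0.043).

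**Figure D2:**
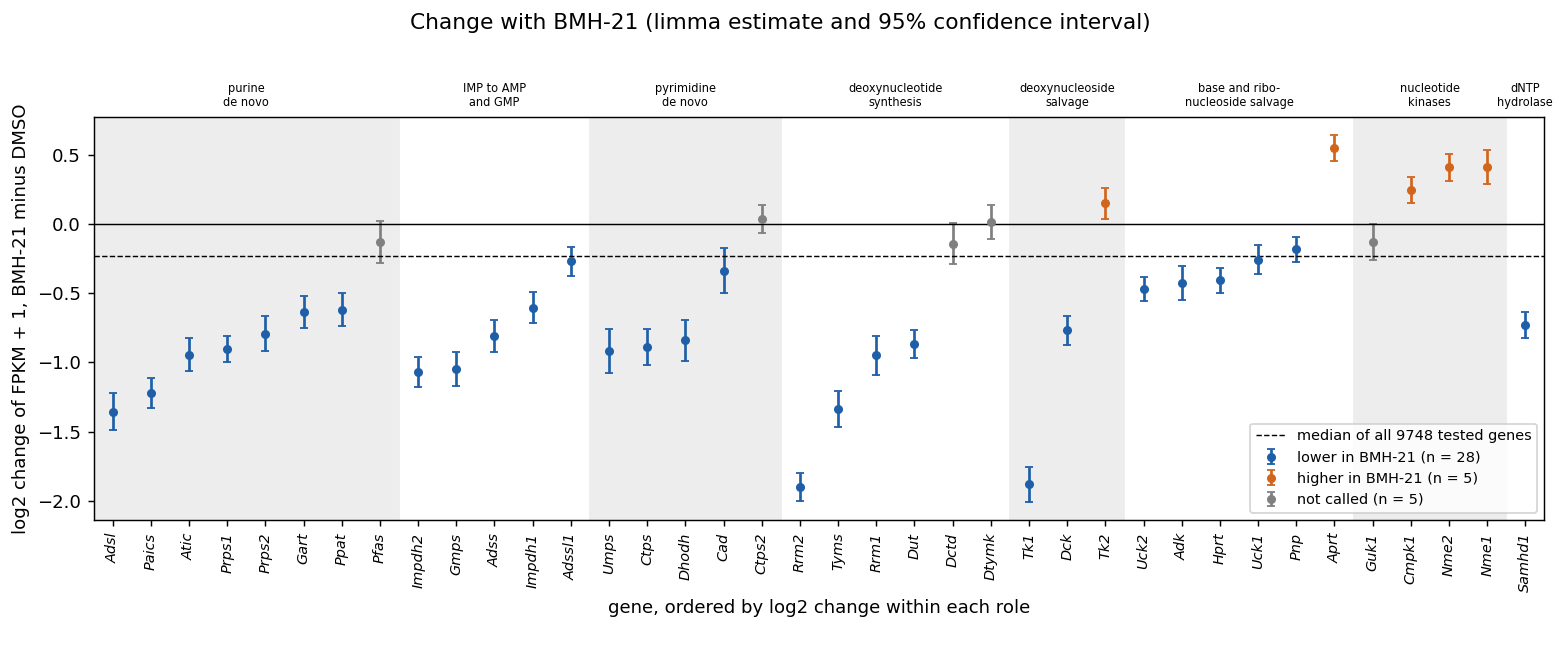
Log2 change of FPKM + 1 (BMH-21 minus DMSO) of each of the 38 genes, with its 95% confidence interval from limma, for genes called lower (blue, 28), called higher (orange, 5) and not called (grey, 5). The dashed line is the median of all tested genes, -0.23, and Rrm2 (-1.90) and Tk1 (-1.88) lie lowest.

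In de novo pyrimidine synthesis 4 of 5 genes were called lower, where 58.4% of all tested genes were. The median change of the 5 was -0.61 relative to all genes. Cad, the trifunctional enzyme that starts the pathway, was scarce, at 1.32, 1.49 and 1.35 FPKM with DMSO and 1.07, 0.877 and 0.740 FPKM with BMH-21. Its log2 change was -0.34, or -0.59 with a pseudocount of 0.1, and the call was lost with upper-quartile scaling (limma adjusted p = 0.066), with quantile normalization (0.27) and in a fit adjusted for coding length and GC, at -0.02. Dhodh, the mitochondrial dehydrogenase of the pathway, went from 3.81 to 1.69 FPKM. Umps, which makes UMP, was at 7.90, 7.63 and 7.79 FPKM with DMSO and 3.19, 3.64 and 4.17 FPKM with BMH-21, a log2 change of -0.92 ± 0.07 (SE, limma adjusted p = 1.21e-06). Ctps, CTP synthase, was at 12.4, 12.6 and 11.7 FPKM with DMSO and 6.71, 5.73 and 5.97 FPKM with BMH-21, a log2 change of -0.89 ± 0.06 (SE, limma adjusted p = 3.79e-07). Its paralog Ctps2 was at 5.34, 5.64 and 5.56 FPKM with DMSO and 5.62, 5.65 and 5.76 FPKM with BMH-21. Ctps2 was not called (log2 change 0.04, 95% confidence interval -0.07 to 0.14, limma adjusted p = 0.48), and it was called higher under the 3 scalings, at 0.29, 0.31 and 0.35.

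Salvage of bases and ribonucleosides moved less. Of its 6 genes 5 were called lower and 1 higher, and their median change was -0.10 relative to all genes. The shares over all tested genes were 58.4% lower and 19.9% higher. Aprt (chromosome 8, 122574635 to 122576909), which salvages adenine, showed the largest rise of the 38 genes. It was at 289, 268 and 283 FPKM with DMSO and 411, 405 and 417 FPKM with BMH-21, a log2 change of 0.55 ± 0.04 (SE, limma adjusted p = 9e-07). Hprt, which salvages hypoxanthine and guanine, went the other way, from 185 ± 3.4 to 139 ± 4.9 FPKM (SD, n = 3). The call of Hprt was lost with upper-quartile scaling (log2 change -0.09, limma adjusted p = 0.082). Uck2, the more abundant uridine-cytidine kinase gene, was at 111, 108 and 105 FPKM with DMSO and 77.8, 76.2 and 79.0 FPKM with BMH-21, a log2 change of -0.47 ± 0.04 (SE, limma adjusted p = 1.87e-06). Adenosine kinase, Adk, went from 6.03 to 4.23 FPKM, a call lost with quantile normalization (limma adjusted p = 0.12). Uck1 went from 29.6 to 24.6 FPKM and the purine nucleoside phosphorylase gene Pnp from 16.2 to 14.2 FPKM, small called falls whose sign turned under median-ratio and upper-quartile scaling. Pnp was then called higher with upper-quartile scaling (0.12, limma adjusted p = 0.031) and was not called with quantile normalization (0.045) or the coding length and GC adjustment (0.0065). The call of Uck1 was also lost with quantile normalization (limma adjusted p = 0.18) and with the coding length and GC adjustment (0.31). Pnp shares 718 exon bases (18.0% of its own) with the overlapping gene Gm49342 on the same strand, so the division of reads between these genes is uncertain.

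The nucleotide kinases were the role in which no gene was called lower, and 3 of the 4 were called higher, where 19.9% of all tested genes were. Nme2 (chromosome 11, 93949814 to 93956259) and Nme1 (chromosome 11, 93956979 to 93968521) encode nucleoside diphosphate kinases, which make triphosphates from diphosphates. Nme2 was the most abundant of the 38 genes per length, at 468, 468 and 463 FPKM with DMSO and 636, 638 and 588 FPKM with BMH-21. Its log2 change was 0.41 ± 0.04 (SE, limma adjusted p = 1.11e-05). Nme1 was at 79.5, 70.7 and 77.2 FPKM with DMSO and 97.4, 108 and 98.0 FPKM with BMH-21, also a log2 change of 0.41 ± 0.06 (SE, limma adjusted p = 7.16e-05). Both lie in tandem and share exons with Gm20390, a gene model that spans them, 573 bases or 48.9% of Nme2 and 418 bases or 12.5% of Nme1. Gm20390 is listed separately, so the split of reads among the 3 is uncertain. The UMP and CMP kinase gene Cmpk1 was at 67.5, 73.7 and 70.2 FPKM with DMSO and 85.6, 83.0 and 83.2 FPKM with BMH-21, a log2 change of 0.25 ± 0.04 (SE, limma adjusted p = 0.00032). The guanylate kinase gene Guk1 was at 20.6, 19.9 and 23.1 FPKM with DMSO and 18.3, 19.5 and 20.0 FPKM with BMH-21. Its ranges overlapped and it was not called (log2 change -0.13, 95% confidence interval -0.26 to 0.00, limma adjusted p = 0.067). It was called lower without DMSO replicate 2 (-0.17, limma adjusted p = 0.032) and with DMSO replicate 3 as the only DMSO library (-0.25, limma adjusted p = 0.011, with no DMSO spread), and higher with median-ratio scaling (0.15) and upper-quartile scaling (0.18).

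The summed level of all 38 was nearly the same in both groups, 1834 ± 13 FPKM with DMSO and 1838 ± 24 FPKM with BMH-21 (SD, n = 3). As a share of the summed FPKM of all 19233 genes it was 0.538% with DMSO and 0.496% with BMH-21. Nme2 (466 to 621 FPKM) and Aprt (280 to 411 FPKM), the most abundant of the 38 per length, rose, while most of the 38 fell. The nucleotide kinases summed to 634 ± 1.9 FPKM with DMSO and 825 ± 31 FPKM with BMH-21. Deoxynucleotide synthesis summed to 113 ± 3.0 and 69.1 ± 1.3 FPKM, and de novo pyrimidine synthesis to 30.7 ± 0.73 and 18.1 ± 0.53 FPKM. The genes called higher have short coding sequences, 456 to 810 bases (median 540), where those called lower range from 600 to 6675 bases (median 1322). Across the 38 genes, coding length and log2 change had a Spearman rho of -0.41, and across 9221 tested genes one of -0.28. These points share the same 6 libraries, so the values are given without a p. With all genes adjusted for coding length and GC, 24 of the 38 were called lower and 8 higher, where 36.1% and 37.9% of all tested genes were. The median of the nucleotide kinases relative to all genes went from 0.56 to 0.32 with this adjustment.

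Paralogs and partner subunits were then compared within each library, as the ratio of their FPKM values. A ratio within a library does not change when the library is scaled by a constant factor, as in median-ratio and upper-quartile scaling. Quantile normalization and the coding length and GC adjustment can change it. With quantile normalization the log2 change was 0.43 for Nme1 and 0.18 for Nme2, where both were 0.41 as deposited. A ratio shows only unequal change. The pairs were chosen with the values known. With 3 libraries against 3, the smallest p an exact permutation test can give is 0.10. In 6 of 8 pairs the ratios of the groups did not overlap, each at this smallest p (two-sided exact permutation p = 0.10, 0.13 adjusted over the 8 pairs), so none passes 0.05. Tk1 over Tk2 moved most, at 1.44, 1.30 and 1.23 with DMSO and 0.276, 0.259 and 0.281 with BMH-21. Ctps over Ctps2 was at 2.32, 2.24 and 2.10 with DMSO and 1.19, 1.01 and 1.04 with BMH-21, so CTP synthase mRNA went from mostly Ctps to near equal levels of both. Adss over Adssl1 went from 0.256 ± 0.016 to 0.171 ± 0.017, and Impdh1 over Impdh2 from 0.953 ± 0.079 to 1.33 ± 0.14 (SD, n = 3). The ratio of Rrm1 to Rrm2 was 0.0975 ± 0.0052 with DMSO and 0.128 ± 0.0052 with BMH-21, and Uck1 over Uck2 was 0.274 ± 0.014 and 0.317 ± 0.018 (SD, n = 3). In the remaining pairs the groups overlapped. Prps1 over Prps2 was at 4.34 ± 0.14 and 4.27 ± 0.28 (two-sided exact permutation p = 0.80, n = 3), and Nme1 over Nme2 at 0.163 ± 0.010 and 0.163 ± 0.0087 (two-sided exact permutation p = 1, n = 3).

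**Figure D3:**
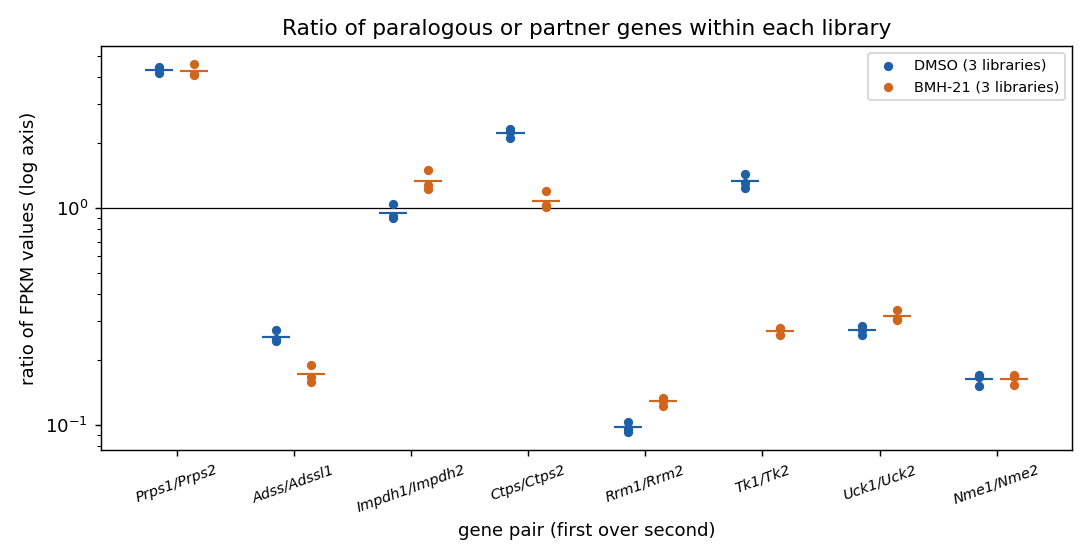
Ratio of FPKM values (log axis) of 8 pairs of paralogs or partner subunits in each DMSO (blue) and BMH-21 (orange) library, with bars at the group means. The ratio of Tk1 to Tk2 drops from 1.23 to 1.44 with DMSO to 0.259 to 0.281 with BMH-21, and those of Prps1 to Prps2 and Nme1 to Nme2 overlap.

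The E-box CACGTG, the core letters bound by MYC and related factors, was in the 300-base RefSeq promoter of 6 of the 36 genes with an entry (16.7%), where 8.09% of all genes with one hold it. It reads the same on both strands. Of these 6, Atic, Impdh2, Paics and Tyms were called lower, Nme1 higher and Dtymk was not called. The shares over all tested genes were 58.4% lower and 19.9% higher. The 30 bases around each match are shown so that the shared letters, in capitals, can be compared, on the gene's strand with GRCm38.p6 coordinates.
Atic, chr1:71557137-71557166: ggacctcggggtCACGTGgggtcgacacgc
Dtymk, chr1:93802065-93802094: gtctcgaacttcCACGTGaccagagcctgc
Impdh2, chr9:108560314-108560343: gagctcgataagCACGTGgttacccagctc
Nme1, chr11:93968037-93968066: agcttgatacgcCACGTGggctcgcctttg
Nme1, upstream start, chr11:93968273-93968302: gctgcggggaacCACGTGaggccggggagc
Paics, chr5:76951087-76951116: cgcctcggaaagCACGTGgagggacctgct
Tyms, chr5:30073669-30073698: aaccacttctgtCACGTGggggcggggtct

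Nme1 holds the motif before each of 2 RefSeq starts. Whether the motif has a part in the changes was not tested, and no match says only that the letters are not in this window. Myc itself was at 0.619 FPKM with DMSO and 0.436 FPKM with BMH-21, under the filter, and was not tested.

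Other genes that feed or drain the nucleotide pools were read from lists chosen beside the 38, with earlier results of these data known. Of all tested genes, 58.4% were called lower and 19.9% higher, with a median of -0.23. Of 11 one-carbon genes, which supply the folate-bound carbons for purines and thymidylate, 10 were tested, 8 were called lower, 0 higher and 2 were not called. Their median change was -0.81. The 3 of smallest p were mitochondrial: Shmt2 went from 71.2 to 16.2 FPKM, Mthfd2 from 92.4 to 36.6 FPKM and Mthfd1l from 5.62 to 1.81 FPKM. Of 33 replication fork genes 30 were tested, 29 were called lower and 1, Gins3, higher, with a median of -0.98. Among them the polymerase subunit gene Pold2 went from 41.2 to 18.1 FPKM, the helicase gene Mcm5 from 9.00 to 2.19 FPKM and the helicase activator gene Gins1 from 19.2 to 6.78 FPKM.

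The lists of the other nucleotide enzymes lay nearer to the all-gene median of -0.23, where 58.4% of all tested genes were called lower and 19.9% higher. Of 22 other genes of nucleotide making and sanitising, 13 were called lower and 3 higher, with a median of -0.18. The uridine kinase-like gene Uckl1 went from 8.33 to 3.91 FPKM, the PRPP synthetase-associated gene Prpsap1 from 28.1 to 17.1 FPKM, and the adenylate kinase gene Ak1 rose from 7.66 to 13.2 FPKM. Of 20 breakdown genes 11 were tested, 9 were called lower and 0 higher, with a median of -0.28. Adenosine deaminase, Ada, went from 9.99 to 4.99 FPKM, guanine deaminase, Gda, from 11.8 to 7.93 FPKM and AMP deaminase 2, Ampd2, from 10.1 to 6.89 FPKM. Of 7 nucleoside transporter genes 3 were tested. Slc29a1, the main equilibrative transporter of the plasma membrane, went from 23.0 to 11.0 FPKM and Slc29a2 from 1.47 to 1.08 FPKM, both called lower. The call of Slc29a2 was lost under the 3 scalings and its sign turned with the coding length and GC adjustment (0.11, limma adjusted p = 0.13). The lysosomal Slc29a3 was called higher, from 3.01 to 3.96 FPKM.

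**Figure D4:**
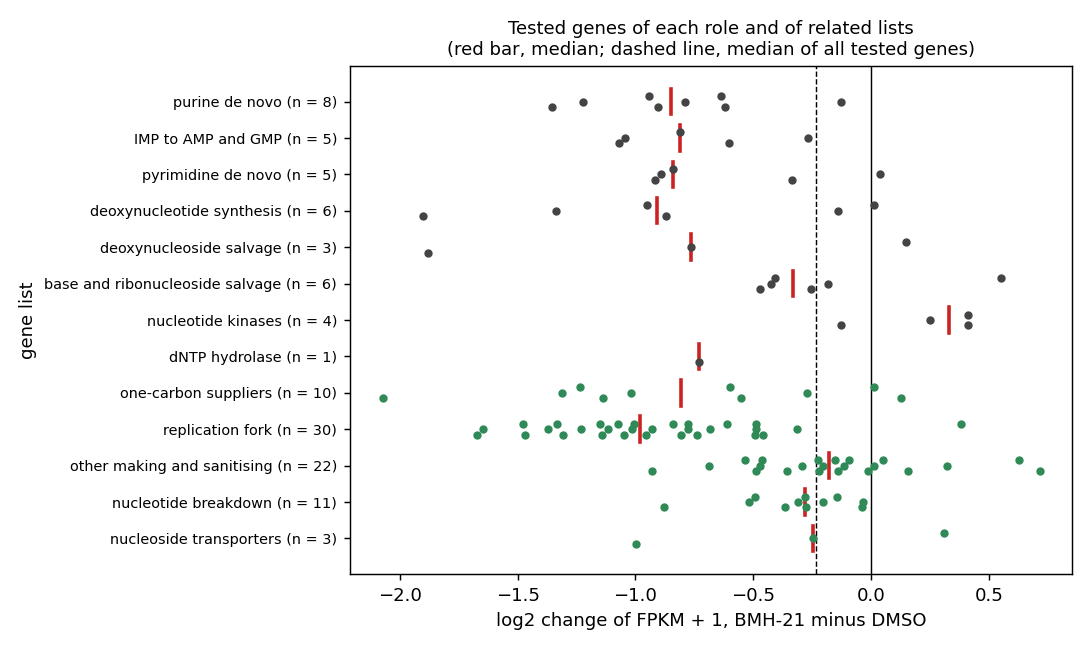
Log2 change of FPKM + 1 (BMH-21 minus DMSO) of every tested gene in the 8 roles of the 38 genes (dark points) and in 5 related lists (green points), with red bars at the medians, a dashed line at the all-gene median of -0.23 and a solid line at 0. Most points of the synthesis roles, the one-carbon list and the replication fork list lie left of the dashed line, and the nucleotide kinases lie to its right.

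Of 10 regulators of cell growth and S phase, 9 were tested, 4 were called lower, 2 higher and 3 were not called. The shares over all tested genes were 58.4% lower and 19.9% higher. E2f2, an activator of S-phase genes, went from 6.38 to 1.74 FPKM, Rb1, which restrains E2F factors, from 4.14 to 1.77 FPKM and Trp53, the p53 gene, from 16.3 to 7.40 FPKM. E2f1 and Atf4 were picked out after their values were seen: E2f1 was called higher, from 12.2 to 14.1 FPKM, but not with DMSO replicate 3 as the only DMSO library (0.11, limma adjusted p = 0.20, with no DMSO spread), and Atf4 went from 340.1 to 190.3 FPKM, a called fall.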

How the data were processed

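Polysome RNA of 6 RAW264.7 libraries was analysed, 3 with BMH-21 and 3 with DMSO, grouped by their titles. The deposited values, 1 column per library, were read as FPKM from the values themselves, because neither header nor labels name the unit. The tools Trimmomatic 0.38, HISAT2 and SAMtools and the build mm10 are named, with no role, per the submitters' processing notes. Not given in the sources used here are the counting tool and its annotation. Depth was estimated from the spacing of low values in single-transcript genes (1975 to 2332 per library). At the best depth 64.6% to 68.3% of them were whole reads (tolerance 0.01, up to 20 reads), too few to recover counts. In FPKM, more of the abundant genes means less of the others.

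Tests covered the 9748 genes (50.7%) that reached 1 FPKM in 3 or more libraries, and were made on log2(FPKM + 1) with limma 3.58.1 (R 4.3.3, intensity trend), adjusted by Benjamini-Hochberg over all of them, after the fit had been tested on simulated data. The list of member names, the other lists, the pairs and the alternatives were drawn up with earlier results of these data known. Within each role the 2 genes of smallest p, all genes called higher and all not called are given by library, and of each other list the 3 of smallest p. Positions, exon overlaps and coding lengths came from GENCODE M21 (GRCm38), and sequences from RefSeq (GRCm38.p6), which matched 36 of 38 members. Coding lengths matched 94.6% of tested genes. Alternatives covered pseudocount, filters, scalings, replicate block, trend, leaving out each library, coding length with GC, and DMSO replicate 3 as the only DMSO library. The last 2 were chosen after seeing the data.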

Additional observations from a re-analysis of the deposited data

How the results depend on the processing

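The number of nucleotide genes called lower stayed within 21 to 30 under all alternatives run, where 33.5% to 58.5% of all tested genes were. The 21 came with a mean of at least 5 FPKM, where 30 of the 38 genes were tested. The number called higher, 5 as deposited, was 9 with upper-quartile scaling. It was 8 both with median-ratio scaling and with the coding length and GC adjustment. Over all tested genes, 5690 lower and 1938 higher as deposited became 3442 and 3724 with median-ratio scaling, 3294 and 3873 with upper-quartile scaling, 3498 and 3517 with quantile normalization, and 3326 and 3495 with the coding length and GC adjustment, and 3180 were lower with a mean of at least 5 FPKM, where fewer genes were tested. Signs turned for Adssl1 (0.023 with median-ratio, 0.046 with upper-quartile scaling, 0.10 with the length and GC adjustment), Uck1 (0.029 with median-ratio, 0.052 with upper-quartile scaling), Pnp (0.095 with median-ratio, 0.12 with upper-quartile scaling, 0.045 with quantile normalization, 0.0065 with the length and GC adjustment), Guk1 (0.15 with median-ratio, 0.18 with upper-quartile scaling, 0.096 with quantile normalization), Dctd (0.13, 0.15 and 0.11 in the same order), Pfas (0.027, 0.039 and 0.13 in that order, 0.19 with the length and GC adjustment), Slc29a2 (0.11 with the length and GC adjustment) and Rrm2b (0.20 with median-ratio, 0.22 with upper-quartile scaling, 0.30 with quantile normalization, 0.22 with the length and GC adjustment), and the cause was not tested. Leaving out each library in turn gave 28 to 29 nucleotide genes lower and 4 to 5 higher. Of all tested genes, 55.9% to 57.4% were then lower and 18.6% to 19.2% higher. Libraries with the same number did not deviate together (correlations -0.11, -0.09 and -0.06, and 0 of 6 libraries correlated best with their own number). With the replicate block 30 nucleotide genes were called lower and 5 higher, where 57.5% and 19.4% of all tested genes were. Dctd and Guk1 were added to those lower. Depth limits the genes near 1 FPKM, such as Cad, Pfas and Rrm1, and intervals cover only the spread between these libraries.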
